A study of Mus musculus with 1047 samples.

Results

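Rxrg and 9 other genes were followed in aged mouse microglia: St8sia6, Cox6a2, Slamf9, Milr1, Cd72, Ly86, Naalad2, Tnfsf13b and Cyp4f18. These 10 genes, of 20765 in the aged droplet table, were chosen by their levels in droplet microglia with much Apoe against those with little, so their droplet levels are given as a description with no test. All 10 were also present among the 13298 genes kept from the aged Smart-seq2 table and the 16012 genes of the 5xFAD table. The Smart-seq2 values had been seen too when the genes were chosen. The p-values below come from fits over all genes, which does not undo that choice. Counts of members beside shares of all genes are therefore description.

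The study compared microglia of white and grey matter in aged mice. Smart-seq2, which sequences full transcripts of single sorted cells, was applied to 6 Trem2ko mice aged 18 to 28 months and to 7 C57BL/6J wild-type (WT) mice aged 18 to 19 months. The oldest Trem2ko mouse, A13, and a 5xFAD mouse, A187, had under 5 cells in a library and were left out of the fits. The same method was applied to prefrontal cortex of 5xFAD mice and C57BL/6J WT mice, aged 6 to 7 months in the animals compared, and to a pool of 3 C57BL/6J CX3CR1-GFP mice at postnatal day 14. Whole-brain-cell suspensions of white and grey matter from male C57BL/6J WT mice aged 24 months were profiled with 10x droplets, in 2 white matter and 3 grey matter pools of 3 to 4 mice each; for 1 white matter pool the title gives wild type and the genotype field gives ApoeKO. Grey matter came from the frontal cortex, and white matter from the optic tract, medial lemniscus and corpus callosum. The sorted cells were viable, CD45-positive and CD11b-positive, and those of the aged and 5xFAD sets were dissociated with 45 µM actinomycin D, an inhibitor of transcription. The titles of the postnatal cells also name actinomycin, but no dose was recorded for them here. Trem2 encodes a lipid-sensing receptor of microglia, and the labels do not name the Trem2ko allele. The 5xFAD line is a model of amyloid deposition whose transgenes are driven by a neuronal Thy1 promoter. The Apoe-knockout droplet pools were not analysed here.

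Apoe encodes the main lipid carrier made in the brain. Microglia around amyloid plaques and in ageing white matter are known to raise Apoe together with lipid-handling genes such as Lpl and to lower the homeostatic receptors P2ry12 and Tmem119. Rxrg encodes retinoid X receptor gamma, a ligand-activated nuclear receptor that pairs with other receptors such as the LXR proteins, which switch on Apoe, Abca1 and Abcg1 in response to oxysterols. Retinoid X receptor gamma is also known from oligodendrocyte lineage cells.

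The depth of the summed Smart-seq2 libraries ranged from 570371 to 59659463 reads over the animals compared, with 7 to 99 cells per animal and tissue in the aged set. The 2 deepest Trem2ko animals, A11 and A12, came from a separate part of the table. Trem2 reached 275 to 2034 CPM (reads scaled to a common library total) in the white matter libraries labelled Trem2ko and 346 to 1455 CPM in those of grey matter, against 1799 to 3977 CPM in WT white matter and 2145 to 5216 CPM in WT grey matter. The libraries labelled Trem2ko of A12 were the highest in both tissues and overlapped WT in white matter. The WT animals with both tissues were labelled male and the Trem2ko animals were of both sexes. Plate run and partly sex went with genotype and cannot be told apart from it. Part of the table went with genotype only in part, since Trem2ko A8, A9 and A10 shared a part with the WT cells. The 12 microglia markers fixed for this work were all in the table, and their summed level was 53181 to 63398 CPM in Trem2ko white matter, 59662 to 69633 CPM in Trem2ko grey matter, 48589 to 60149 CPM in WT white matter and 56821 to 65641 CPM in WT grey matter. Of the 21197 droplet barcodes, 20128 remained after filters, 10902 of them in 8 microglia-like clusters, with a median of 7563 UMIs (unique transcript molecules). The barcodes carried 5 endings, 1_1, 1_2, 2_1, 2_2 and 3, which no label ties to a pool, and 41 barcode sequences occurred under more than 1 ending.

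The 10902 microglia-like barcodes were sorted into 4 bins by Apoe UMIs per 10000 UMIs. The bin under 10 held 5729 barcodes, the bin from 10 to under 50 held 1996, the bin from 50 to under 200 held 1474, and the bin of 200 or more held 1703. Endings 2_1 and 2_2 held nearly all of the highest bin, with 33.5% and 40.9% of their microglia-like barcodes in it, against 0.17% of ending 1_1, 0.16% of ending 1_2 and 0.07% of ending 3. Median UMIs were 7231, 7313, 7963 and 10495 from the lowest to the highest bin. The landmark genes differed between the bins, Lpl being 29.2-fold and Cst7 12.8-fold of the lowest bin in the highest, and P2ry12 0.217-fold and Tmem119 0.340-fold. Trem2 was 1.18-fold.

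Rxrg, the retinoid X receptor, had 9.05, 17.4, 47.8 and 54.9 CPM from the lowest to the highest Apoe bin. Pooled over endings, the main step lay between the second and the third bin. Endings 2_1 and 2_2 held 470 and 363 of the 1996 barcodes of the second bin, and 603 and 748 of the 1474 of the third. That step thus mixes Apoe with ending. The exact Poisson interval of the highest bin, 51.6 to 58.3 CPM, did not reach that of the lowest, 8.16 to 10.0 CPM. These intervals cover counting error only and treat the barcodes as 1 pooled sample. The highest bin had 6.07 times the Rxrg level of the lowest, with a 95% interval of 5.39 to 6.84. After thinning each cell to 2000 UMIs, 164 of 1678 cells of the highest bin had an Rxrg UMI, or 9.77%, against 93 of 5609 cells of the lowest, or 1.66%. Without thinning the shares of cells with an Rxrg UMI were 37.3% and 5.87%. Endothelial-like cells, which should lack the gene, had 0 of 911 thinned cells with an Rxrg UMI, which allows a share of up to 0.404%, at a median of 6476 UMIs. The other retinoid X receptors went the other way, since Rxra had 18.2 CPM in the highest bin and 30.8 CPM in the lowest, and Rxrb had 29.9 and 44.3 CPM.

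The other low-level members showed the same ordering. St8sia6, a sialyltransferase that adds sialic acid to sialic acid on glycoproteins, had 17.1, 29.3, 84.7 and 89.7 CPM from the lowest to the highest bin. Cox6a2, the heart and muscle form of a cytochrome c oxidase subunit, had 14.2, 35.6, 73.0 and 97.4 CPM. Milr1, an inhibitory receptor first studied on mast cells, had 24.0, 38.0, 75.2 and 85.4 CPM. Each of these was higher at every step. Cd72, a lectin-type inhibitory receptor known from B cells, had 10.3, 30.6, 91.4 and 98.1 CPM. Cyp4f18, a cytochrome P450 that oxidises leukotriene B4, had 0.645, 4.59, 18.5 and 41.5 CPM. Cyp4f18 was the member with the widest span, 64.3-fold with an interval of 43.9 to 98.2, and its lowest bin rested on 27 UMIs. Set between the top and bottom 25% of cells by Apoe within each ending, the ratios were smaller, 18.2-fold for Cyp4f18, 2.70-fold for Rxrg and Cd72, 2.67-fold for Cox6a2, 2.43-fold for St8sia6 and 1.75-fold for Milr1.

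The 4 remaining members spanned a smaller range and peaked in the bin from 50 to under 200. Slamf9, a SLAM-family receptor of myeloid cells, had 142, 165, 252 and 228 CPM. Ly86, or MD-1, the partner of the receptor CD180, had 1551, 1799, 2306 and 1883 CPM. Naalad2, a peptidase of the glutamate carboxypeptidase family, had 74.0, 92.7, 124 and 104 CPM. Tnfsf13b, or BAFF, the B-cell survival cytokine, had 69.2, 87.2, 123 and 98.5 CPM. In all 4 the highest bin was below the third. The plot of CPM by Apoe bin sets these 4 beside the 6 that kept climbing.

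**Figure D1:**
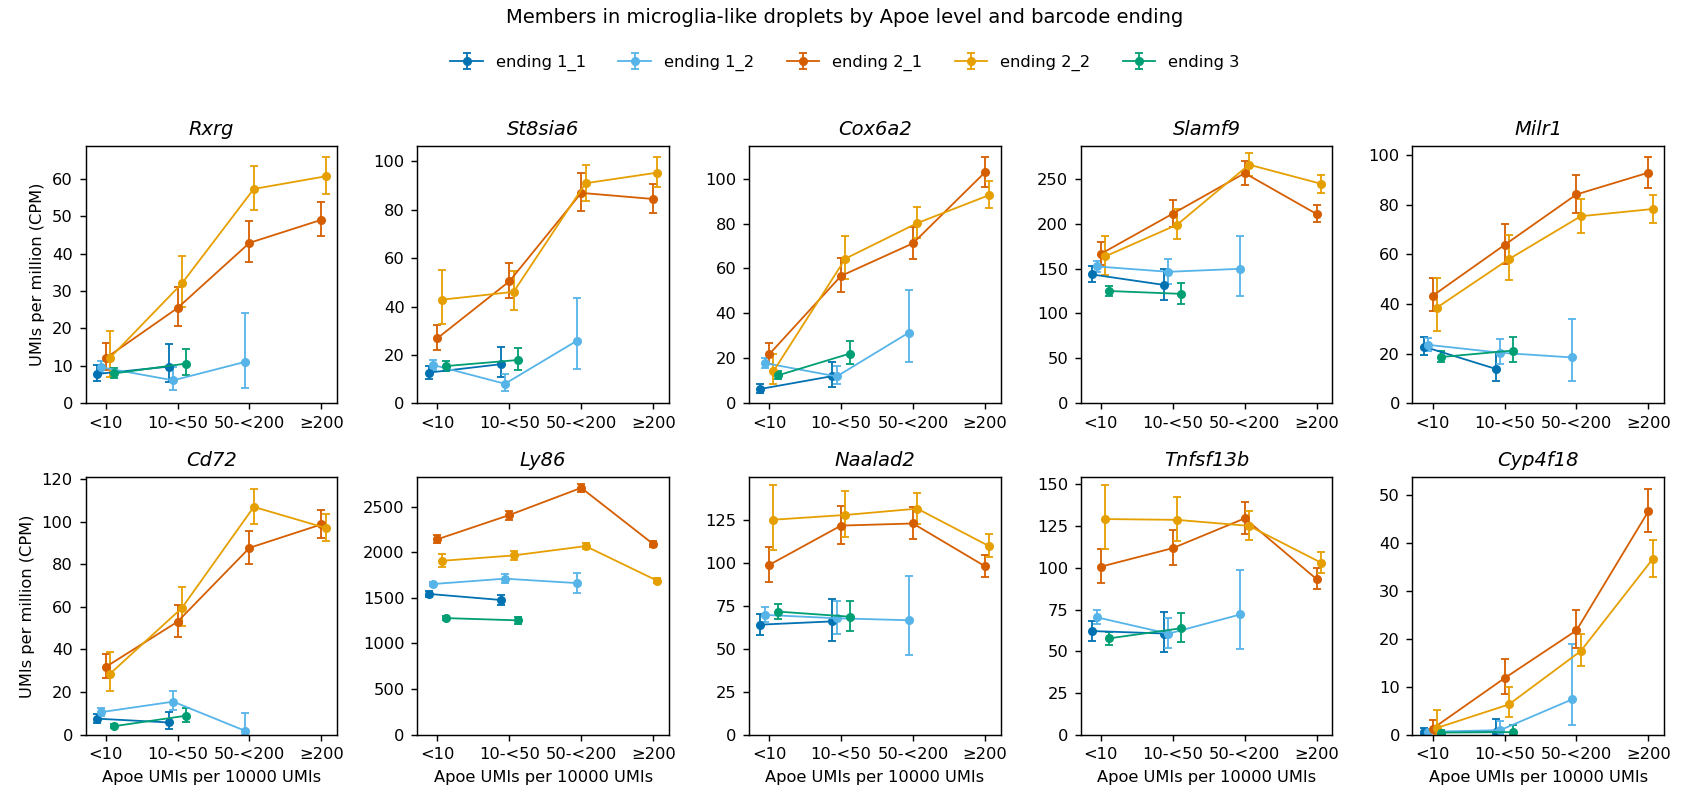
CPM of each of the 10 genes by Apoe bin (UMIs of Apoe per 10000 UMIs) and barcode ending, with exact Poisson 95% bars. In endings 2_1 and 2_2, Rxrg, St8sia6, Cox6a2, Milr1, Cd72 and Cyp4f18 are higher in the highest than in the lowest bin. Slamf9, Ly86, Naalad2 and Tnfsf13b differ less between those bins.

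Of the 6036 genes whose mean over the highest and the lowest bin was at least 20 CPM, 148 were at least 2-fold higher in the highest bin with 1 CPM added to both, or 2.45%, and 6 of the 10 members were. The choice of the members used this contrast, so nothing is read from that count. The median fold was 4.23 over the members and 0.735 over all these genes.

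Within single endings the members parted. Ending 2_1 had 793 barcodes in the highest bin and 504 in the lowest, and ending 2_2 had 902 and 195. Rxrg was 4.07-fold in ending 2_1 (interval 3.01 to 5.62) and 5.00-fold in ending 2_2 (interval 3.09 to 8.64). Cox6a2 was 4.72-fold and 6.49-fold, Cd72 3.11-fold and 3.40-fold, St8sia6 3.14-fold and 2.23-fold, and Milr1 2.15-fold and 2.03-fold in endings 2_1 and 2_2. Cyp4f18 was 36.4-fold and 25.7-fold, on 5 and 2 UMIs in the lowest bins. These 6 genes thus stayed above 1 in each of the 2 endings, and Slamf9 did too, at 1.27-fold and 1.49-fold. At least 2-fold were 6 of 10 members in ending 2_1, against 2.15% of all genes, and 5 of 9 in ending 2_2, against 2.02%, counts that the choice of members bears on.

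Ly86, Naalad2 and Tnfsf13b did not. Ly86 was 0.976-fold (interval 0.951 to 1.00) in ending 2_1 and 0.885-fold (interval 0.850 to 0.922) in ending 2_2. Naalad2 was 0.993-fold (interval 0.880 to 1.12) and 0.877-fold (interval 0.747 to 1.04), and Tnfsf13b was 0.926-fold (interval 0.821 to 1.05) and 0.798-fold (interval 0.680 to 0.940). The median over all genes with at least 20 CPM was 0.755-fold in ending 2_1 and 0.784-fold in ending 2_2. Summed over all bins, Tnfsf13b had 107 and 115 CPM in endings 2_1 and 2_2, against 62.0, 69.1 and 58.7 CPM in endings 1_1, 1_2 and 3. Naalad2 had 108 and 120 CPM in endings 2_1 and 2_2, against 64.3, 69.1 and 71.5 CPM in the other 3. For these 3 genes the pooled difference between bins went with the ending, and the plot of bin ratios shows their points near 1 within endings. Rxrg had 37.2 and 52.2 CPM in endings 2_1 and 2_2 summed over all bins, against 8.62, 9.22 and 8.42 CPM in endings 1_1, 1_2 and 3. The gap was narrower in the lowest bin, with 12.0 and 12.1 CPM in cells under 10 of endings 2_1 and 2_2, against 7.86, 9.64 and 8.00 CPM in cells under 10 of endings 1_1, 1_2 and 3. From 10 to under 50 a gap remained, with 97 Rxrg UMIs in 470 barcodes of ending 2_1 and 91 in 363 of ending 2_2. Endings 1_1, 1_2 and 3 had 17 in 231, 19 in 423 and 38 in 509 barcodes there. Under 10 these 3 endings had 55 in 901, 137 in 2003 and 123 in 2126 barcodes. Rxrg thus differed by ending as well as by Apoe.

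**Figure D2:**
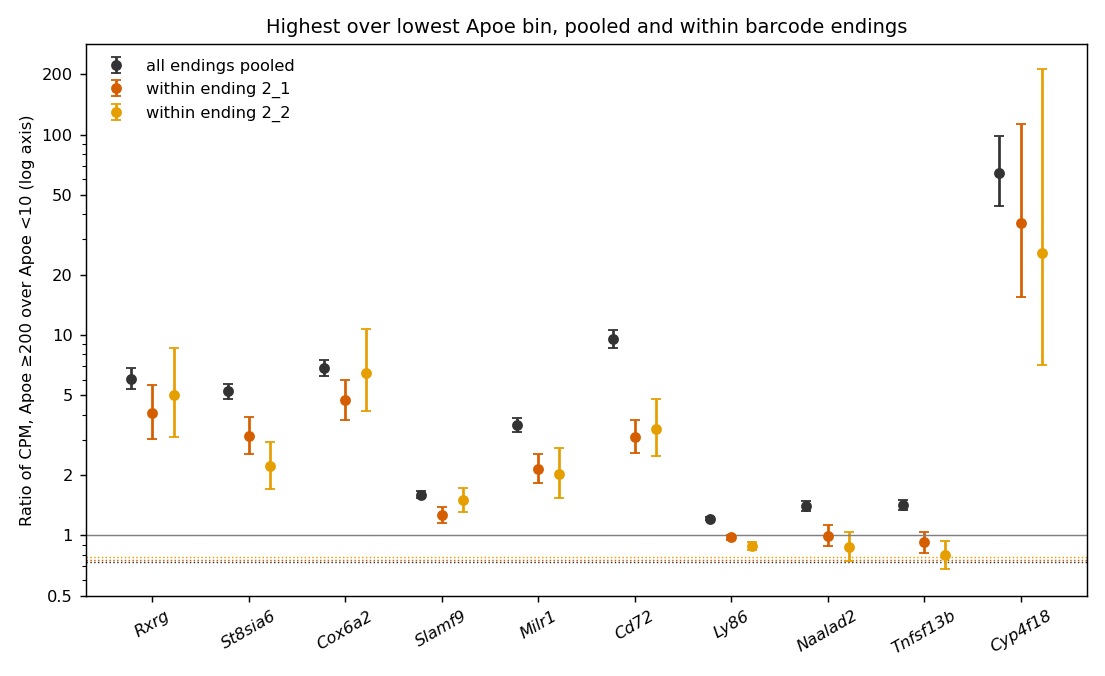
Ratio of CPM in the highest Apoe bin over the lowest for each gene, in all barcodes and in endings 2_1 and 2_2, on a log axis with 95% counting intervals and dotted lines at the median of all genes; the intervals of Ly86, Naalad2 and Tnfsf13b include or fall below 1 within the endings.

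Cells with much Apoe lay mainly in 2 microglia-like clusters, 1 led by Spp1, Ccl4 and Lpl and 1 led by Slamf9, Rxrg and Ly86. Of the 1071 barcodes of the Spp1-led cluster 66.7% were in the highest bin, and of the 2487 barcodes of the Slamf9-led cluster 34.4% were. All 12 microglia markers were detected in the Spp1-led cluster, with a mean log2 fold of -0.23 against other barcodes. The clusters were built from these same cells, so their levels are description. Cox6a2 reached 140.1 CPM in the Spp1-led cluster and 59.2 CPM in the Slamf9-led cluster. Cd72 had 129 and 66.4 CPM and Cyp4f18 38.3 and 22.4 CPM in the Spp1-led and Slamf9-led clusters. Rxrg had 43.4 and 47.7 CPM, Slamf9 196.9 and 256 CPM, and Tnfsf13b 72.4 and 127 CPM. The members thus parted between the clusters, with Cox6a2, Cd72 and Cyp4f18 higher in the Spp1-led one and Tnfsf13b, Naalad2 and Ly86 higher in the Slamf9-led one. Without the Spp1-led cluster the highest bin was still 6.88-fold of the lowest for Rxrg (interval 6.04 to 7.85), 7.90-fold for Cd72 and 4.13-fold for Cox6a2.

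Among the microglia-like barcodes with at least 50 Apoe UMIs per 10000, 1056 had an Rxrg UMI. Those cells were deeper, with a median of 10988 UMIs against 8199 in the 2121 cells without one. St8sia6 was 1.22-fold, Cd72 1.21-fold, Cyp4f18 1.20-fold and Milr1 1.18-fold in the cells with an Rxrg UMI over those without, and Cox6a2 was 1.02-fold. Slamf9, Ly86, Naalad2 and Tnfsf13b were between 1.02-fold and 1.10-fold.

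The members were not equally restricted to microglia among the cell classes named from markers. Rxrg had 25.9 CPM in microglia-like cells and 29.7 CPM in oligodendrocyte progenitor-like cells, the class of progenitors having 14 UMIs in 40 barcodes and an interval of 16.2 to 49.8 CPM. Astrocyte-like cells had 3.20 CPM of Rxrg and endothelial-like cells 0.653 CPM. Ly86 had 1774 CPM in microglia-like cells, 646 CPM in border-associated macrophage-like cells and 453 CPM in monocyte-like cells. Naalad2 had 90.8 CPM in microglia-like cells and 58.6 CPM in pericyte-like cells, and Tnfsf13b had 86.3 CPM in microglia-like cells and 54.1 CPM in neutrophil-like cells. Slamf9 had 180.5 CPM in microglia-like cells and 166 CPM in monocyte-like cells.

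As the map of levels by cell class shows, other classes carried 4 of the remaining members at higher levels than microglia-like cells. Cox6a2 was the exception, with 44.2 CPM in microglia-like cells and 15.1 CPM in neuroblast- and neuron-like cells, the next class. Cyp4f18 had 12.7 CPM in microglia-like cells, 270.4 CPM in neutrophil-like cells and 142 CPM in monocyte-like cells. Cd72 had 44.4 CPM in microglia-like cells and 104 CPM in B-cell-like cells. St8sia6 had 44.6 CPM in microglia-like cells and 83.5 CPM in endothelial-like cells, and Milr1 had 47.0 CPM in microglia-like cells and 78.1 CPM in border-associated macrophage-like cells.

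**Figure D3:**
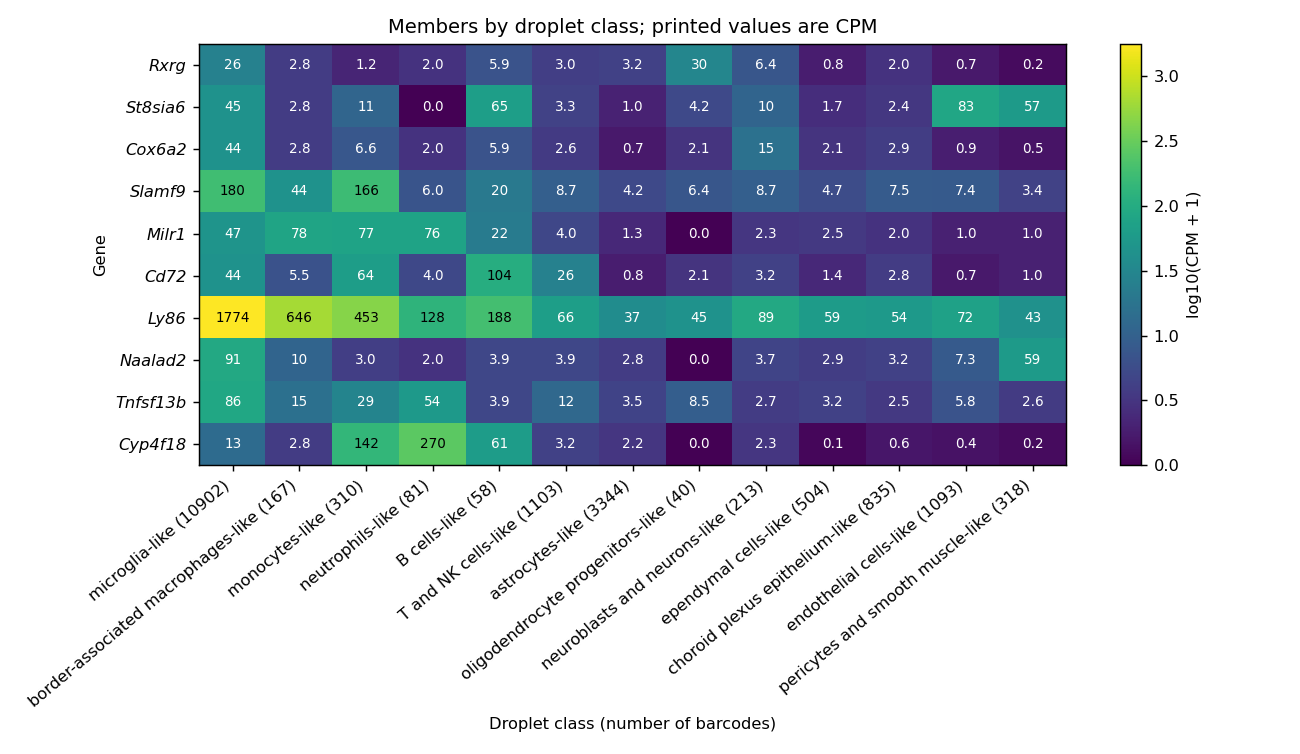
CPM of the 10 genes in each cell class of the aged droplet table, classes being named from fixed markers; Ly86, Naalad2 and Tnfsf13b are highest in microglia-like cells, while Cyp4f18 is highest in neutrophil-like cells and Cd72 in B-cell-like cells.

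Genes whose level most resembled that of Rxrg were ranked over 15 summed droplet groups, each an Apoe bin of 1 ending with at least 50 cells. Among 6187 genes the 5 highest Pearson correlations with Rxrg on log2(CPM + 1) were those of Glipr1 (0.966), Myo5a (0.962), Cd52 (0.956), St8sia6 (0.956) and Cybb (0.956). Cox6a2 ranked 15, Slamf9 31, Milr1 45, Cd72 137, Naalad2 292, Tnfsf13b 335 and Ly86 522. The 15 groups share 5 endings and their depth, and the choice of members used the same bins. Over the 23 aged Smart-seq2 libraries, Cox6a2 ranked 43 and Apoe 48 among 5582 genes, with correlations of 0.555 and 0.549. The genes ranked first there were Rps19, Fth1 and Pabpc1, and the other members compared ranked far lower, Cd72 902, Slamf9 919, Ly86 1399, Cyp4f18 2329 and Tnfsf13b 2764 (correlation 0.058). Of these, Cyp4f18 was not ranked in droplets, since its mean over the groups was under 20 CPM. Cd72, Slamf9, Ly86 and Tnfsf13b all ranked lower in Smart-seq2 than in droplets. St8sia6, Milr1 and Naalad2 were under the same limit in Smart-seq2 and were not ranked there.

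In Smart-seq2, white and grey matter of the same aged animals were compared. In summed libraries, fewer cells of a type and less RNA per cell cannot be told apart. All 10 members were higher in white matter than in grey matter by the fitted log2 fold change in both genotypes, but none passed the adjusted threshold of 0.05 in edgeR's quasi-likelihood test. The shares of all 9919 genes with a positive fold change were 50.1% in Trem2ko and 53.0% in WT. In Trem2ko 0 of 9919 genes passed, or 0.0%, and in WT 5 passed, or 0.0504%, with 255 genes in Trem2ko and 536 in WT at an unadjusted p under 0.05. DESeq2 passed 72 genes in Trem2ko (0.726%) and 292 in WT (2.94%), among them 3 members in Trem2ko and 5 in WT. At an unadjusted p under 0.05 in edgeR, 3 members were higher in Trem2ko white matter, against 1.36% of all genes, and 8 in WT white matter, against 3.27%. White matter was higher in every animal for 5 members in Trem2ko, against 3.17% of all genes, and for 4 members in WT, against 1.28%. Since the Smart-seq2 values had been seen when the members were chosen, nothing is read from these counts of members.

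Cyp4f18 had 5.85, 83.0, 105.1, 51.0 and 41.7 CPM in white matter of Trem2ko A8, A9, A10, A11 and A12, against 1.40, 5.28, 1.43, 3.21 and 2.26 CPM in grey matter of the same animals. In WT it had 1.11, 34.5 and 221 CPM (lowest, median and highest of 6) in white matter, against 0, 0 and 1.90 CPM in grey matter (7 animals). White matter was higher in all 11 animals with both tissues, a pattern shown by 29 of 9919 genes, or 0.292%. For WT A2 that direction lay at the floor, with 1.11 against 0 CPM in a white matter library of 897381 reads. The 7 WT grey matter libraries together held 6 Cyp4f18 reads. Cyp4f18 was 4.15 log2 units higher in Trem2ko white matter (SE 1.06, edgeR adjusted p 1.00, DESeq2 adjusted p 1.59e-04) and 6.66 higher in WT white matter (SE 1.21, edgeR adjusted p 0.0638, DESeq2 adjusted p 1.65e-08). The tissues did not overlap in Trem2ko and overlapped in WT. Of the Cyp4f18 reads of A6 white matter, the highest WT library, 99.7% came from 1 cell. Neutrophil markers, with 5 of 6 in the table, summed to 0.277 to 51.8 CPM in Trem2ko white matter, 8.74 to 61.5 CPM in Trem2ko grey matter, 6.69 to 74.2 CPM in WT white matter and 0 to 102 CPM in WT grey matter. Monocyte markers, also 5 of 6, summed to 16.0 to 54.3 CPM in Trem2ko white matter, 11.1 to 57.6 CPM in Trem2ko grey matter, 8.63 to 104 CPM in WT white matter and 1.75 to 29.0 CPM in WT grey matter. Their part in the Cyp4f18 and Milr1 values was not tested.

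Naalad2 and Tnfsf13b were the other members higher in white matter of all 11 animals. Naalad2 had 19.2, 18.3, 35.5, 54.9 and 36.7 CPM in white matter of Trem2ko A8 to A12, against 8.74, 4.10, 1.11, 11.3 and 11.0 CPM in grey matter. In WT it had 23.9, 29.1 and 75.8 CPM (lowest, median and highest) in white matter, against 0, 3.99 and 13.3 CPM in grey matter. White and grey matter did not overlap in either genotype for Naalad2. Naalad2 was 2.41 log2 units higher in Trem2ko white matter (SE 1.18, edgeR adjusted p 1.00) and 3.12 higher in WT white matter (SE 1.18, unadjusted p 0.0178, DESeq2 adjusted p 0.0104). Tnfsf13b had 116, 126, 177, 115 and 237 CPM in white matter of Trem2ko A8 to A12, against 2.80, 106, 78.3, 4.94 and 28.0 CPM in grey matter. In WT Tnfsf13b had 111, 179 and 603 CPM in white matter and 19.1, 77.7 and 586 CPM in grey matter, so the groups overlapped there but not in Trem2ko. Tnfsf13b was 2.92 log2 units higher in Trem2ko white matter (SE 0.75, edgeR unadjusted p 0.00125, DESeq2 adjusted p 0.00245) and 1.32 higher in WT white matter (SE 0.60, unadjusted p 0.0435).

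Cd72 was above grey matter in all 5 Trem2ko animals and in 5 of 6 WT animals. In Trem2ko white matter it had 51.0, 24.2, 36.9, 33.9 and 51.9 CPM, against 31.8, 10.6, 0.635, 13.0 and 11.0 CPM in Trem2ko grey matter. In WT it had 3.42, 74.1 and 166 CPM (lowest, median and highest) in white matter, against 0, 0.784 and 134 CPM in grey matter. The tissues overlapped in both genotypes, and the high WT grey matter value belonged to A2 and came from 1 cell. In WT white matter 1 cell likewise held 99.6% of the Cd72 reads of A6, the highest library, and all those of A2 (65.7 CPM). Cd72 was 2.06 log2 units higher in Trem2ko white matter (SE 1.18) and 6.44 higher in WT white matter (SE 1.61, edgeR adjusted p 0.265, DESeq2 adjusted p 2.44e-06). The difference between the genotypes in this tissue effect was -4.37 log2 units (SE 1.95, edgeR unadjusted p 0.0387, adjusted p 1.00). No member's tissue effect passed the adjusted threshold for a difference between genotypes, and 0 of 9919 genes did (0.0%). Cd72 alone had an unadjusted p under 0.05, as did 242 genes, 1.43% of all genes being lower and 1.01% higher at that level. DESeq2 passed 30 genes (0.302%) and 0 members.

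Rxrg itself was spread widely between animals. It had 23.1, 1.04, 1.11, 85.4 and 31.9 CPM in white matter of Trem2ko A8 to A12, against 0.350, 0.293, 1.43, 30.3 and 4.92 CPM in grey matter. In WT it had 0.729, 76.2 and 198 CPM in white matter (lowest, median and highest of 6), against 0, 22.3 and 61.3 CPM in grey matter (7 animals). White matter was higher in 4 of 5 Trem2ko and 5 of 6 WT animals, and the groups overlapped. Of these, WT A6 (0.729 against 0 CPM) and Trem2ko A9 (1.04 against 0.293 CPM) were near the floor in both tissues. Trem2ko A10, where grey matter was higher, was as low, with 1.11 against 1.43 CPM. Rxrg averaged 28.5 ± 34.6 CPM in Trem2ko white matter and 7.45 ± 12.9 CPM in Trem2ko grey matter (SD, n = 5 each), and 90.1 ± 84.3 CPM in WT white matter (SD, n = 6) and 22.0 ± 22.7 CPM in WT grey matter (SD, n = 7). Rxrg was 2.22 log2 units higher in Trem2ko white matter (SE 1.21) and 1.83 higher in WT white matter (SE 1.26, edgeR unadjusted p 0.168). The WT difference was 0.97 without A4 and 2.72 without A7, and 3.62 with only cells of at least 50000 reads. At least 10 Rxrg reads were found in 6 of 293 cells of Trem2ko white matter and 3 of 265 cells of Trem2ko grey matter, or 2.05% and 1.13%, and in 16 of 136 cells of WT white matter and 5 of 145 cells of WT grey matter, or 11.8% and 3.45%. In the 15 of 23 libraries with at least 10 Rxrg reads, the highest cell held a median of 78.6% of them.

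Cox6a2 was higher in white matter of all 5 Trem2ko animals and 4 of 6 WT animals, 1 WT animal having no reads in either tissue. It had 14.2, 62.3, 35.8, 11.8 and 35.5 CPM in white matter of Trem2ko A8 to A12, against 1.40, 0.879, 0.318, 0.185 and 14.7 CPM in grey matter. In WT it had 0, 71.0 and 99.8 CPM in white matter, against 0, 0 and 29.7 CPM in grey matter. The tissues overlapped in both genotypes. Cox6a2 was 4.85 log2 units higher in Trem2ko white matter (SE 1.68, edgeR unadjusted p 0.0113) and 4.65 higher in WT white matter (SE 1.91, edgeR unadjusted p 0.0278). DESeq2 adjusted p-values for Cox6a2 were 0.0120 in Trem2ko and 0.0302 in WT.

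St8sia6 and Milr1 were higher in white matter of 4 of 5 Trem2ko animals and 4 of 6 WT animals. In WT, St8sia6 had a median of 14.5 CPM in white matter and 0 CPM in grey matter, and Milr1 46.9 and 0.632 CPM. The fitted differences were 2.70 (SE 2.36) and 5.01 (SE 2.48) log2 units for St8sia6 in Trem2ko and WT, and 2.18 (SE 1.63) and 5.00 (SE 1.97) for Milr1. Slamf9 and Ly86 had smaller differences. Slamf9 was 0.05 log2 units higher in Trem2ko white matter (SE 0.35) and 0.91 in WT (SE 0.33), and Ly86 0.17 (SE 0.18) and 0.58 (SE 0.16). Ly86 was higher in white matter of all 6 WT animals and 3 of 5 Trem2ko animals, with 956, 998 and 1510 CPM (lowest, median and highest) in WT white matter against 605, 756 and 1019 CPM in WT grey matter.

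**Figure D4:**
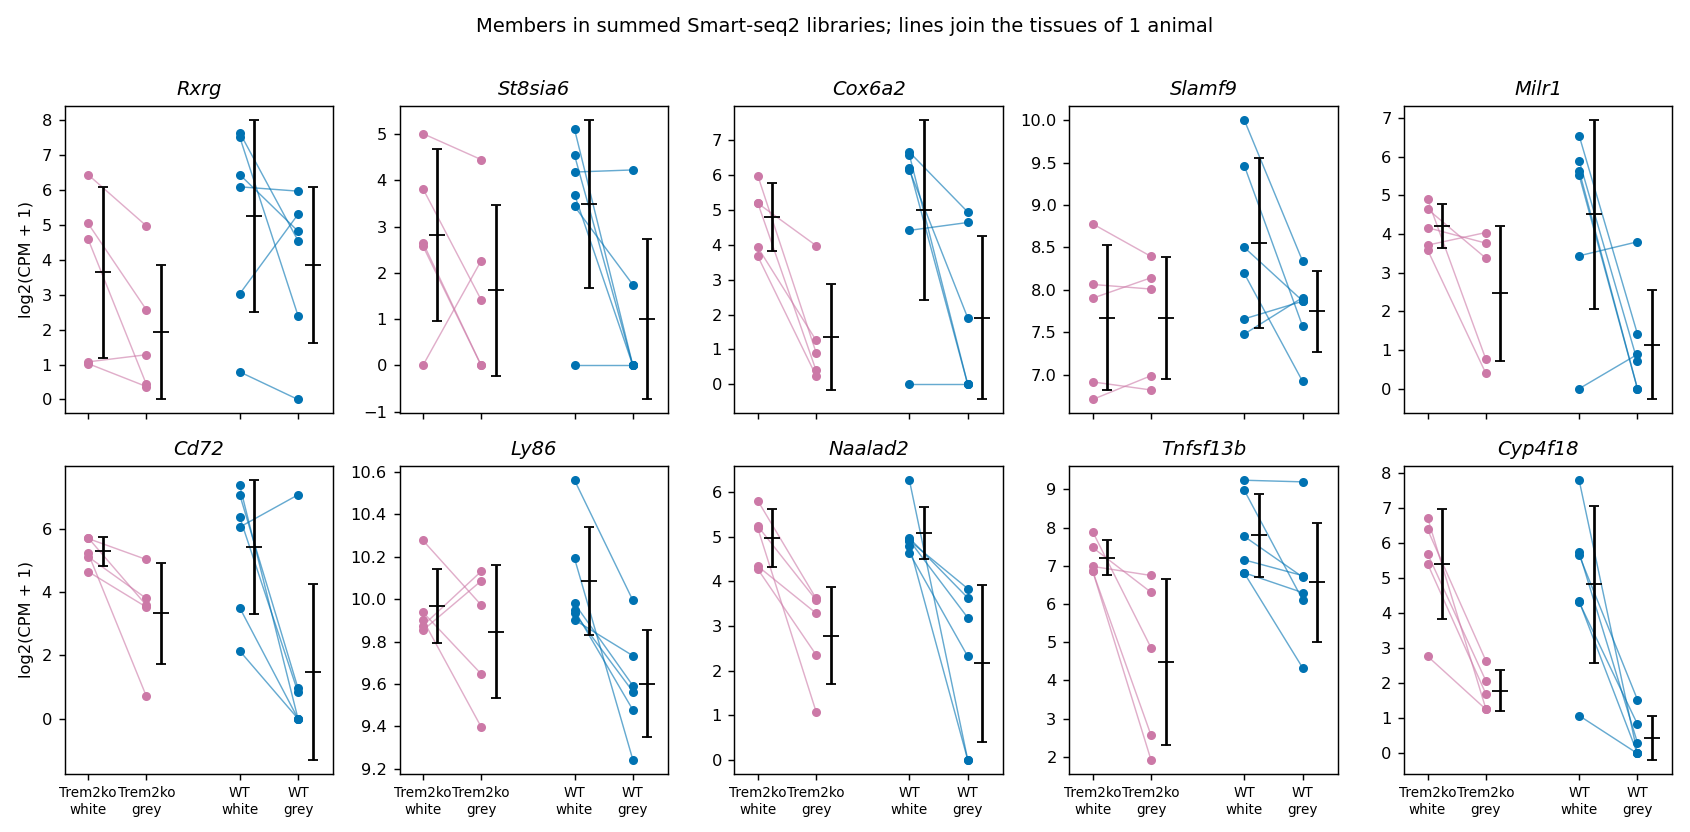
log2(CPM + 1) of each gene in white (left) and grey (right) matter of every Trem2ko and WT animal, with lines joining the tissues of an animal and black marks for mean and SD; Naalad2 and Cyp4f18 separate the tissues most clearly, and Rxrg overlaps.

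The plot of paired tissues shows each animal. The same reads were also counted by cell, with a cut of 10 reads that was not scaled to depth. Median reads per cell were 107505 in white and 58019 in grey matter of A7, and 61774 and 90795 in A4. The share over all genes was not computed. Since the Smart-seq2 values had been seen when the members were chosen, nothing is read from these counts. The share of cells with at least 10 reads of Naalad2 was higher in white matter in 5 of 5 Trem2ko and 6 of 6 WT animals, and that of Cox6a2 and Milr1 in 5 of 5 and 5 of 6, with 1 WT animal tied in each. For Rxrg it was 3 of 5 and 4 of 6, with 2 and 1 ties. Slamf9 and Tnfsf13b had a higher share in 3 and 4 of 5 Trem2ko animals and 6 of 6 WT animals.

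Genotype was compared within each tissue. In white matter all 10 members were lower in Trem2ko than in WT by the fitted log2 fold change, a direction shared by 45.7% of 8439 genes. With no minimum of cells, which adds A13, Slamf9 was 0.87, Ly86 0.0455 and Tnfsf13b 0.44 log2 units, and without WT A6 Cyp4f18 was 0.86 and Naalad2 0.12. Cyp4f18 was also 0.15 without Trem2ko A8. The direction of 5 of the 10 members thus turned in at least 1 of these settings. No member passed edgeR's adjusted threshold, and of all genes 0 of 8439 did (0.0%), with 282 genes at an unadjusted p under 0.05. DESeq2 passed 14 of 8439 genes (0.166%) and 0 members. Slamf9 alone among the members had an unadjusted p under 0.05 (0.0364), being 1.10 log2 units lower (SE 0.48), and 1.56% of all genes were lower and 1.78% higher at that level. Rxrg had 1.04 to 85.4 CPM in Trem2ko white matter and 0.729 to 198 CPM in WT white matter, and was -1.83 log2 units (SE 1.18). No member separated the genotypes, and 10 of 8439 genes, or 0.118%, had every Trem2ko animal below every WT animal. In grey matter 6 members passed the filter on low counts, Rxrg, Slamf9, Cd72, Ly86, Naalad2 and Tnfsf13b, and none of them passed in edgeR. Of 8286 genes 1 did (0.0121%), Trem2 itself, and DESeq2 passed 9 (0.109%) and 0 members. No member of the 6 had an unadjusted p under 0.05, against 1.34% of genes higher and 1.19% lower. Tnfsf13b was -1.84 log2 units (SE 0.97), Rxrg -1.60 (SE 1.40), Cd72 -0.53 (SE 1.62), Naalad2 0.37 (SE 1.21), Ly86 0.24 (SE 0.21) and Slamf9 0.07 (SE 0.44). Cd72 was 3.82 with DESeq2, Tnfsf13b was 2.87 with no minimum of cells and -0.70 without WT A6, Rxrg was -3.67 without Trem2ko A11, Naalad2 was -0.21 with A8, A9 and A10 only, and Slamf9 changed sign in several settings.

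In prefrontal cortex, 4 5xFAD animals were set against 2 WT animals. In edgeR 0 members and 0 of 9668 genes (0.0%) passed the adjusted threshold, 315 genes having an unadjusted p under 0.05, 1.82% of all genes higher and 1.44% lower, and no member doing so. DESeq2 passed 151 genes (1.56%) and no member. The fitted fold change was positive for 8 of 10 members, all but Rxrg and Tnfsf13b, against 54.2% of all genes. Rxrg had 0.886, 99.2, 0 and 0.194 CPM in 5xFAD A91, A93, A99 and A100, against 237 and 0.190 CPM in WT A132 and A173. Each group had 1 high animal, and in A93 99.6% of the Rxrg reads came from 1 cell. Rxrg was -2.18 log2 units (SE 2.44) and reached 7.17 without WT A132. Cox6a2 had 1.33, 74.7, 247 and 104 CPM in 5xFAD, against 51.6 and 2.28 CPM in WT. Ly86 had 832, 655, 1231 and 690.5 CPM in 5xFAD, against 537 and 554 CPM in WT, and was the only member with every 5xFAD animal above both WT animals, as for 331 of 9668 genes, or 3.42%. Apoe ranged from 365 to 68799 CPM in 5xFAD and was 32471 and 2653 CPM in WT. In the postnatal pool Ly86 had 1477 CPM, Cd72 4.46 CPM and Slamf9 0.298 CPM, and no spread can be given. The plot of fitted fold changes sets all 5 comparisons side by side.

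**Figure D5:**
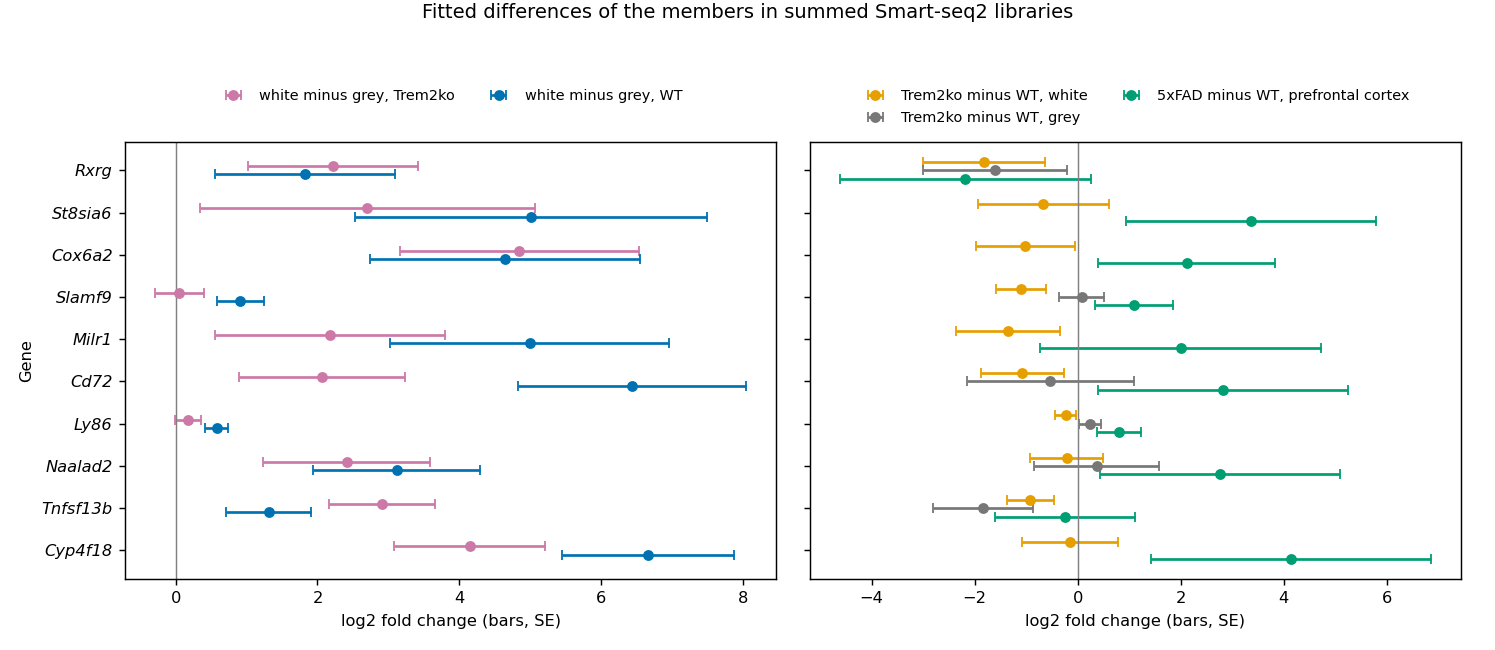
Fitted log2 fold changes with SE from edgeR, left for white minus grey matter in Trem2ko and WT animals and right for Trem2ko minus WT in each tissue and 5xFAD minus WT; the tissue points of all 10 genes lie above 0 in both genotypes, and the bars are wide for genes with few reads.

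Related genes showed where the pattern was shared. Genes named here beside a count were picked after their values were seen. Of all 6036 genes with at least 20 CPM, 148 (2.45%) were at least 2-fold higher and 414 at most 0.5-fold. Of the 9 LXR and RXR targets with at least 20 CPM in droplets, 3 were at least 2-fold higher in the highest Apoe bin than in the lowest, Apoe, Lpl and Plin2 (2.54-fold). Apoe itself sets the bins, and the members in these lists were chosen on this contrast, so their part in the counts was set by that choice. Of the targets, 1 was at most 0.5-fold, Lpcat3 (0.480-fold), and Abca1 and Abcg1 were 0.749-fold and 0.843-fold. Of 5 retinoid X receptors and partners, Rxrg alone was at least 2-fold higher. In Smart-seq2, Apoe was 4.66 log2 units higher in WT white matter (SE 0.66, edgeR adjusted p 0.0456) and Lpl 7.52 higher (SE 1.19, edgeR adjusted p 0.0228), 2 of 10 tested targets, while Abcg1 was -1.27 (unadjusted p 0.00245).

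The list counts that follow stand beside 2.45% of all 6036 genes at least 2-fold higher and 414 of the 6036 at most 0.5-fold. Among 10 sialic acid genes at 20 CPM, St8sia6 and St8sia4 (2.20-fold) were at least 2-fold higher and St3gal5 and St3gal6 at 0.357-fold and 0.343-fold. Of 6 sialic acid-binding Siglec genes, Cd22 was 2.97-fold and Siglech, Siglece and Cd33 were at most 0.5-fold, Siglech being 0.275-fold. Of 12 inhibitory receptors, Cd72, Milr1 and Cd22 were at least 2-fold higher and Cd33 and Siglece at most 0.5-fold. Of 6 SLAM genes, Slamf8 (2.04-fold) and Ly9 (2.00-fold) passed 2-fold and Slamf9 did not. Of 6 cytochrome c oxidase subunit genes Cox6a2 alone passed, and Cox6a1, the widely expressed form, was 1.26-fold. Of 6 genes of the MD-1 and MD-2 list, Tlr2 alone passed (2.29-fold), and Cd180, the partner of Ly86, was 1.06-fold. Of 3 BAFF and APRIL genes none passed, and the receptors Tnfrsf13b and Tnfrsf17 were 0.471-fold and 0.328-fold. Of 4 Cyp4f and leukotriene genes Cyp4f18 alone passed (41.5 against 0.645 CPM). The 20 CPM limit is on the mean of the highest and the lowest bin. Cyp4f18, Rxrg, Lpl, Plin2, St8sia6, St8sia4, Cd22, Cox6a2 and Cd72 were under it in the lowest bin and met it only through the highest. Rxra and Tnfrsf17 met it only through the lowest bin. The limit itself thus bears on the counts of all these lists. Genes under that limit were not counted in any list, whichever way they went. Among them Slamf7 was 18.9-fold, Lilrb4a 14.2-fold and Apoc1 20.7-fold, while Slamf1 was 0.373-fold and Siglecg 0.157-fold. Dhrs3 (1.36-fold) and Naalad2 (1.40-fold) were the only genes at 20 CPM of the retinoid and glutamate carboxypeptidase lists. The median fold, with 1 CPM added and the members included, was 1.73 for the SLAM list, 1.43 for the oxidase list, 1.14 for the MD-1 and MD-2 list, 0.862 for the sialic acid list, 0.843 for the LXR and RXR targets, 0.762 for the retinoid X receptors and partners, 0.731 for the inhibitory receptors, 0.700 for the Cyp4f list, 0.532 for the Siglecs and 0.471 for the BAFF list, beside 0.735 over all genes.

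Between WT tissues no gene of these lists passed edgeR's adjusted threshold apart from Apoe and Lpl. At an unadjusted p under 0.05, 4 of 13 inhibitory receptors, 3 of 7 oxidase genes and 2 of 5 genes of the MD-1 and MD-2 list were higher in WT white matter, members included, against 3.27% of all genes. In the other lists the counts were 2 of 10 LXR and RXR targets, 1 of 8 SLAM genes, 1 of 7 Siglecs, 1 of 6 Cyp4f and leukotriene genes, 1 of 4 BAFF and APRIL genes, Naalad2 as the 1 tested gene of its family, and 0 of 6 retinoid X receptors and partners, 0 of 3 retinoid genes and 0 of 12 sialic acid genes. Cd22 was 3.72 log2 units higher in WT white matter (SE 1.29, edgeR unadjusted p 0.0110) but -1.04 in Trem2ko (SE 1.42), a difference between genotypes of -4.76 (unadjusted p 0.0224, adjusted p 1.00). In WT, Cd14 was 0.81 (SE 0.24, unadjusted p 0.00440), Cox8a 0.71 (SE 0.31) and Cox4i1 0.47 (SE 0.22) log2 units higher in white matter. In Trem2ko these 3 were 0.24 (SE 0.26), 0.09 (SE 0.35) and 0.02 (SE 0.24). The median WT differences of the inhibitory receptors, the oxidase genes and the MD-1 and MD-2 list were 0.17, 0.47 and 0.81 log2 units, beside 0.08 over all 9919 genes. In WT, Siglech was -0.52 (SE 0.16, unadjusted p 0.00570) and Cd300a -0.75 (SE 0.29).

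The start sites of the members were searched for motifs in the 250 bases before each start (RefSeq, GRCm38.p6, both strands), in 12 windows of 9 members. Rxrg has a start inside its gene with AGGTCA, the nuclear receptor half-site, 88 bases before it, and Slamf9 and Cd72 have GAGGAAGT, a core bound by PU.1, 8 and 49 bases before theirs. They are printed as the windows with a motif of the family of Rxrg itself or of PU.1, a factor that microglia depend on; the motif is in capitals, and in Cd72 it reads on the other strand. AGGTCA occurs in 14.0% of 32851 windows and GAGGAAGT in 2.44%. Slamf9 also has CACGTG, an E-box, 204 bases before its start, and that motif occurs in 6.02% of windows. A window of Tnfsf13b, not printed, has the AP-1 site TGANTCA 127 bases before its start, as do 6.75% of windows. A match is a description of letters and not a bound site.
Rxrg: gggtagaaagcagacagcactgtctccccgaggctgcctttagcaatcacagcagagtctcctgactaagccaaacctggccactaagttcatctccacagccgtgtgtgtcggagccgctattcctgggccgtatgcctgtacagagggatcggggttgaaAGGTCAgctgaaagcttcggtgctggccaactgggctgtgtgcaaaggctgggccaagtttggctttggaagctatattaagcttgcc
Slamf9: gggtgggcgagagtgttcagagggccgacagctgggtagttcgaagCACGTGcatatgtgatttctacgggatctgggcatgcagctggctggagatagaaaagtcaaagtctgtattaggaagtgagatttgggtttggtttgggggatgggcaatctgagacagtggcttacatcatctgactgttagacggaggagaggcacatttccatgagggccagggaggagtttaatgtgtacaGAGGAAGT
Cd72: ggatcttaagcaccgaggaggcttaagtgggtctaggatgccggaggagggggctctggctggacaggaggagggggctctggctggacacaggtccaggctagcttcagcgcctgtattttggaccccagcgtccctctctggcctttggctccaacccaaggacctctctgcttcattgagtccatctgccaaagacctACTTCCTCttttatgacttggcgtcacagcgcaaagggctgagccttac
The windows lie at chr1:167618015-167618264 on the plus strand, chr1:172475110-172475359 on the plus strand and chr4:43454627-43454876 on the minus strand. The genes themselves are annotated at chr1:167598384-167639623 (Rxrg), chr1:172475358-172478575 (Slamf9) and chr4:43446462-43454628 (Cd72).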

How the data were processed

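The deposited tables hold raw counts, per the file headers and values: UMI counts for the aged droplet table and read counts for the Smart-seq2 tables. The submitters' processing notes name Cell Ranger 4, mm10, Trim Galore, FastQC and bcl2fastq. Aligner and counter for Smart-seq2 are not given in the sources used here. Members and gene lists were chosen with earlier results of these data known.

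Droplet barcodes with at least 500 genes and at most 10% mitochondrial UMIs were kept, and 367 (1.79%) over a doublet score of 0.25 were dropped. They were clustered with Leiden (scanpy 1.11.5, resolution 1.0) and named from fixed markers, leaving 5 clusters unnamed. Of the microglia-like barcodes, 800 lay within 10% of an Apoe bin limit. Ratios carry 95% intervals conditional on the summed counts, and shares carry exact Clopper-Pearson intervals.

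Smart-seq2 reads were summed per animal and tissue, needing at least 5 cells. In the aged table, the 358 cells from A11 to A13 and the other 487 cells use different gene symbols. There 43 renamed pairs were joined, and 4495 genes that were at 0 throughout either set of cells were left out (0.147% of reads). Fits used edgeR 4.0.16 (quasi-likelihood, TMM, filterByExpr, Benjamini-Hochberg over all genes), with the animal as a block for tissue, since the labels give both tissues from the same animals. The correlation of an animal's deviations in the 2 tissues was 0.0235 to 0.134. SE is the absolute log2 fold change over the square root of F. DESeq2 1.42.0 was an alternative. Named genes were the members, the 7 landmarks Apoe, Lpl, Spp1, Cst7, Trem2, P2ry12 and Tmem119, the 5 genes most like Rxrg, and of each list those past the threshold or up to 2 with the smallest p between WT tissues. The fits were also run on simulated data with 200 genes changed 4-fold, and the share recovered is not given here. The biological coefficient of variation, the spread between libraries beyond counting error, was 1.06 in the tissue fit and 1.33 in the 5xFAD fit. A gene that did not pass is therefore not shown to be unchanged. In all, 0 sample columns were left out.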

Additional observations from a re-analysis of the deposited data

Results flagged for a closer look

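Of 50 groups of 4 to 7 animals, 12 had 1 animal whose CPM stood apart from the others by Dixon's ratio. The ratio's chance rate of about 1 in 20 groups is for normally spread values. CPM here was skewed and often 0, as in 5 of 7 WT grey matter animals for St8sia6, so the 12 are not set against that rate. In WT white matter A6 stood apart for Cyp4f18 (221 CPM) and Naalad2 (75.8 CPM). In WT grey matter the animals were A2 for Cd72 (134 CPM), A3 for Cyp4f18 (1.90 CPM) and St8sia6 (17.7 CPM), A5 for Milr1 (12.9 CPM) and A6 for Tnfsf13b (586 CPM). In Trem2ko white matter A8 stood apart for Ly86 (1240.1 CPM). In Trem2ko grey matter A11 stood apart for Rxrg (30.3 CPM) and St8sia6 (20.8 CPM), and A12 for Cox6a2 (14.7 CPM). In 5xFAD prefrontal cortex A93 stood apart for Rxrg (99.2 CPM).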

How the results depend on the processing

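The 1267 values recomputed under alternatives comprised 1142 labelled the same, 38 that changed direction, 27 that lost and 11 that gained a call, and 49 that moved further. For the 1011 log2 fold changes, 938 of them the same, the label means that direction and side of the threshold were kept. For droplet ratios and shares it means within their error, and for counts of genes or members it means equal or close. Counts of 0 called members that stayed 0 are among the 1142. Genes called between WT tissues numbered 5, against 292 with DESeq2, 2 with only cells of at least 50000 reads, 1 with no minimum of cells and 10 with no replicate block, that is without the animal as a term; 1 to 6 were called leaving out 1 animal. Members called there were 5 with DESeq2 and 1, Cyp4f18, with no replicate block. In Trem2ko, 72 genes and 3 members were called with DESeq2, 1 gene with no minimum of cells and 0 to 1 leaving out an animal. DESeq2 called 30 genes for the tissue difference between genotypes, 14 for genotype in white matter and 9 in grey matter, and 151 in 5xFAD, where no filter on low counts gave 16. For genotype 0 to 1 genes were called in white matter and 0 to 2 in grey matter leaving out an animal, and in grey matter 0 with deeper cells, no minimum of cells or male animals only. No member was called in any fit that left out an animal.

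Changes of direction, in log2 units, fell on small or wide differences. Slamf9 between Trem2ko tissues was -0.0634 with A8, A9 and A10 only (range -0.0339 to 0.11 leaving out an animal). The genotype difference in the tissue effect of Rxrg was -1.55 with deeper cells and -0.0720 with no replicate block (range -0.51 to 1.25), and that of Cox6a2 ranged from -1.27 to 1.501. In white matter, genotype gave Slamf9 0.87, Ly86 0.0455 and Tnfsf13b 0.44 with no minimum of cells, and Cyp4f18 0.0631 with A8, A9 and A10 only (range -0.50 to 0.86), while Naalad2 ranged from -0.47 to 0.12. In grey matter it gave Slamf9 -0.0413 with DESeq2, -0.0434 with RLE factors, -0.12 with no minimum, -0.0512 in males and -0.24 with A8, A9 and A10 only (range -0.0901 to 0.30), Cd72 3.82 with DESeq2, Naalad2 -0.21 with A8, A9 and A10 only and Tnfsf13b 2.87 with no minimum. In 5xFAD, Tnfsf13b was 0.52 with no minimum (range -0.59 to 0.11), Milr1 ranged from -0.16 to 6.22 and Rxrg from -3.21 to 7.17. The cause was not tested.

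With the lowest and highest 25% of cells by Apoe within each ending in place of fixed bins, Rxrg was 2.70-fold, Cyp4f18 18.2-fold, Cd72 2.70-fold, Cox6a2 2.67-fold, St8sia6 2.43-fold, Milr1 1.75-fold and Slamf9 1.13-fold, and Ly86, Naalad2 and Tnfsf13b were 0.948-fold, 0.968-fold and 0.918-fold. Leaving the Spp1-led cluster out, chosen after seeing the data, gave 6.88-fold for Rxrg. Thinning to 1000 UMIs left 4.78% of the highest bin with an Rxrg UMI, and by Spearman 2 members were among the 50 genes most like Rxrg, against 4 by Pearson. Low read numbers per library limit Rxrg, St8sia6, Cox6a2, Milr1, Cd72 and Cyp4f18 in Smart-seq2, each with at least 10 reads in 13 to 15 of 23 libraries.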
